A study of Mus musculus with 8 samples.

Results

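The levels of 10 genes of neural progenitor cells and young neurons were compared between mouse embryonic stem (mES) cells with and without Trim71, an RNA-binding protein of the tripartite motif family. The 10 genes were chosen by symbol as usual markers of the neural lineage, with earlier results of these data known. They were Nes, Sox1, Pax6, Sox3, Sox4, Sox11, Tubb3, Map2, Ncam1 and Prom1. All 10 were among the 13558 transcripts of the deposited table, which holds only transcripts with a mean of at least 10 normalized reads in the higher of both genotypes, so every gene described here was above that level in at least 1 group. The question was whether the neural program is already visible in undifferentiated cells that lack Trim71.

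Messenger RNA of 8 libraries was sequenced, 4 labelled KO and 4 labelled WT. All cells were male C57BL/6 mES cells from conditional lines that, per the methods, were homozygous for a Trim71 allele with loxP sites around its last exon and for Rosa26-CreERT2, a Cre recombinase expressed from a ubiquitous locus and switched on by 4-hydroxytamoxifen (4-OHT). The cells called WT were therefore conditional cells and not cells with an unmodified Trim71 gene. Per the labels, KO cells had received 500 nM 4-OHT for 2 days and were kept for at least 7 days before harvest. The methods describe DMSO as the solvent control and a lower dose of 4-OHT than the labels give. The labels give 4-OHT for KO libraries only. Loss of Trim71 therefore cannot be told apart from exposure to 4-OHT and active Cre in any difference between KO and WT. Cells grew in serum and LIF, and cells bearing the surface antigen SSEA-1 were magnetically sorted before lysis. The paper uses SSEA-1 as a marker of undifferentiated cells, and whether the sort removed early neural cells was not tested. KO replicates 1, 2 and 3 came from clone E3 at the label day 2, 3 and 4, and KO replicate 4 from clone 1 at day 5. WT replicates 2 and 3 came from clone E3 at day 3 and 4, and WT replicates 1 and 4 from clone 1 at day 1 and 5. What the day counts from is not given in the labels, and with a pair of clones and libraries of different days the p-values measure the spread between these cultures only.

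Neural induction turns ES cells into neuroepithelial cells, which switch on the SoxB1 factors Sox1 and Sox3 and then Pax6, and build nestin filaments. As progenitors leave the cell cycle they express the SoxC factors Sox4 and Sox11, followed by tubulin and microtubule proteins of neurons such as Tubb3 and Map2, and adhesion molecules such as Ncam1. Several of these genes are known to be transcribed at some level in ES cell cultures, Prom1 (CD133) among them, so their presence alone does not mark neural cells.

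Trim71 itself was low in KO. Its deposited values, normalized read counts that the authors had corrected for clone, were 500.3, 793, 733 and 247 in the KO libraries, given here and below in the order of the replicate numbers, and 2782, 2736, 1988 and 2584 in the WT libraries, a log2 fold change of -2.39 ± 0.35 (SE). Before that correction the KO values were 223, 516, 456 and 524, so that KO replicate 4 was the highest and not the lowest of them, and the WT values 1711 to 3060. The groups did not overlap on either scale, and the remaining reads count over the whole transcript, of which only the last exon is deleted. The ES cell genes Pou5f1, Nanog and Sox2 had mean values of 18497, 12263 and 7289 in KO and 15660.0, 13574 and 7050.5 in WT, and 0 of 11 genes of a pluripotency list had an unadjusted p under 0.05 (0 after adjustment, limma). In the fit with day as replicate block described below, 2 of the 11, Klf4 and Utf1, were higher at that threshold, where 9.92% of all transcripts were, and Sox2 passed it only in voom with the block, at 0.23. Over the whole table, limma gave 1232 transcripts below 0.05 before Benjamini-Hochberg adjustment and 0 after it, the lowest adjusted p being 0.275. Trim71, the deleted gene, had a limma p of 0.000201 before adjustment and 0.294 after it, so it did not pass either. After adjustment 6 transcripts passed with the clone correction undone and 35 in a linear model on untransformed values without clone. Reads recovered from the values, described with the processing, came to between 7042791 and 26164991 per library, with WT replicate 2 the lowest and WT replicate 3 the highest.

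Of the 10 genes, 2 were lower in KO at an unadjusted p under 0.05, Prom1 and Nes, and 0 were higher. Among all 13558 transcripts 4.46% were lower and 4.62% higher at this threshold. Neither gene passed after adjustment over all transcripts: in each of the 21 fits made, the main one and its alternatives, 0 of these genes had an adjusted p under 0.05, and the lowest was 0.115. The log2 fold change was below 0 for 6 genes and above 0 for 4, with a median of -0.34 against -0.0004 over all transcripts. Prom1 alone passed the criterion of the study, an unadjusted p under 0.05 with a fold change of at least 1.5, which 2.49% of all transcripts passed in the lower direction. The study had already picked Prom1 as a gene lower in KO, so its call here is not an independent result. Without WT replicate 3, 5 of the 10 genes had an unadjusted p under 0.05 in either direction, all of them lower, with Pax6, Tubb3 and Ncam1 besides. In that fit 1296 of all 13558 transcripts passed in either direction, beside 1232 with all libraries. Since these are bulk samples, fewer cells with a transcript and less of it per cell cannot be told apart.

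**Figure D1:**
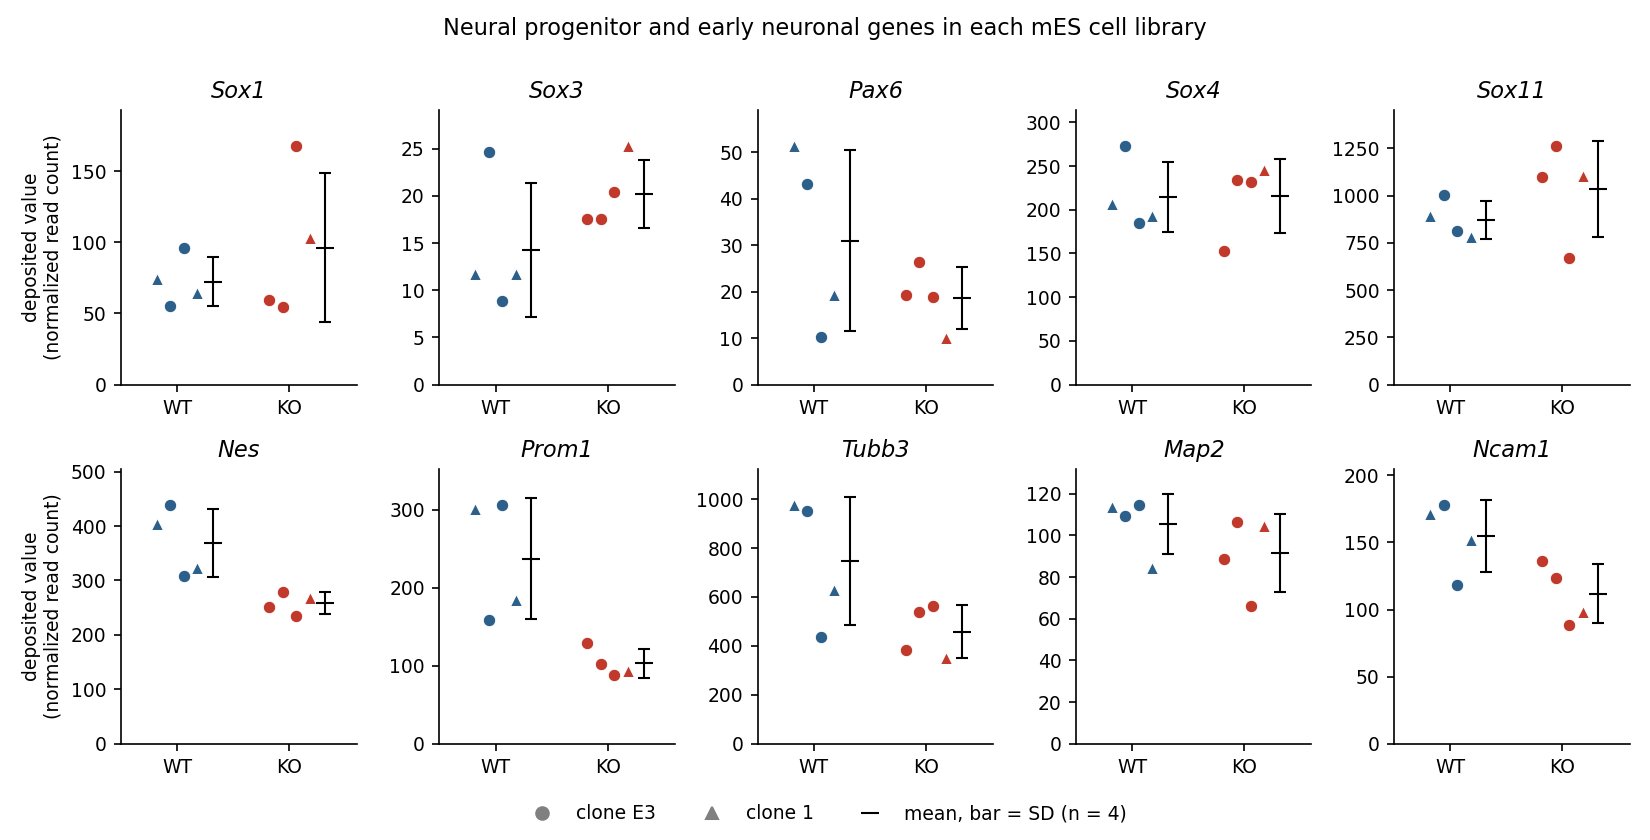
Deposited values (normalized read counts, linear axis from 0) of the 10 genes in each of the 4 WT and 4 KO libraries, circles for clone E3 and triangles for clone 1, with the mean and SD of each group in black. The groups are separate for Nes and Prom1, where all 4 KO values lie under all 4 WT values, and overlap for the other 8 genes.

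The 300-base windows around the starts of the genes whose groups did not overlap, Nes and Prom1, are shown with those of Tubb3 and Sox1, a neuronal and a progenitor gene whose groups did. Each runs 5′ to 3′ on the gene's strand from 250 bases before to 50 after a RefSeq transcription start, in build GRCm38 (mm10), and capitals mark the GC box letters GGGCGG and the CCAAT box letters, each on either strand.
Nes, chr3:87970843-87971142, plus strand: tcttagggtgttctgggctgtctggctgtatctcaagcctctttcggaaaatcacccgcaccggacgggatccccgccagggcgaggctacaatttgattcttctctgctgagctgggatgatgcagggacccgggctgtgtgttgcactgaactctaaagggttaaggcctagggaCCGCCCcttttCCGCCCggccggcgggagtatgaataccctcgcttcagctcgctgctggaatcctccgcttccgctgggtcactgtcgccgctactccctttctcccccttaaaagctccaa
Prom1, chr5:44101687-44101986, minus strand: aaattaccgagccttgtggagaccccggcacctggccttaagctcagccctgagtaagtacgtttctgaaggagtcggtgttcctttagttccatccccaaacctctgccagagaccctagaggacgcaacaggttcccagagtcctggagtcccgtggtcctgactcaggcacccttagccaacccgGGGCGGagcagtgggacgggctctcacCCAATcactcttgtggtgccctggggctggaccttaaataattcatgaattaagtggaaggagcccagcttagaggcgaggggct
Tubb3, chr8:123411303-123411602, plus strand: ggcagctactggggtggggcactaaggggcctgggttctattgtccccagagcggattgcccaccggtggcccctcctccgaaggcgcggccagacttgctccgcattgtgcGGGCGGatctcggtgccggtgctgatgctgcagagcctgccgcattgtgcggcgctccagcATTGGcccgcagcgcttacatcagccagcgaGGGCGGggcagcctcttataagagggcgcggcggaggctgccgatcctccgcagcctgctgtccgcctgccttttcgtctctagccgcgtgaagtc
Sox1, chr8:12395269-12395568, plus strand: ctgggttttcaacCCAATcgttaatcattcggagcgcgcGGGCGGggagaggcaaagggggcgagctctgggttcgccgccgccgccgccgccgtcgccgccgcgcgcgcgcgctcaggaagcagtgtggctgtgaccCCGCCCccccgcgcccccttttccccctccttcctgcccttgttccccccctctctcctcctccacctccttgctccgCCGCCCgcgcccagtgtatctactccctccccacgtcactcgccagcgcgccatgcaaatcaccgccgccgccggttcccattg
The Nes window held 18 CpG and 2 GC boxes, and the Prom1 window 10 CpG, 1 GC box and 1 CCAAT box. Those of Tubb3 and Sox1 held 26 and 37 CpG, against a median of 7 over the 32851 RefSeq windows of the same length. Windows were at hand for 8 of the 10 genes, 10 windows in all, since Pax6 and Prom1 have a second start. GGGCGG was in 6 of the 10 windows and in 35.7% of all windows, and CCAAT in 6 of 10 and in 37.4%. The octamer letters ATGCAAAT occurred in 1 of the 10, that of Sox1, and in 1.74% of all windows, and TATAAA in 0 of 10 and 13.6%. These are matches of letters and not sites of binding. Of the letters searched, the printed windows of Nes and Prom1 share the GC box, which those of Tubb3 and Sox1 hold as well.

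Per kb of transcript, the order of the mean levels in WT ran from the neuronal tubulin down to the progenitor factors. Tubb3 was highest at 400.0 ± 140 (SD, n = 4) normalized reads per kb, followed by Sox11 at 105 ± 11.8, and the WT ranges of these neighbours did not overlap. Nes, Prom1 and Sox4 followed at 60.1, 59.9 and 44.7, with ranges that overlapped from each to the next. Ncam1 at 25.6 lay apart from Sox4 above it and from Map2 below it, at 16.9. The lowest WT means were those of Sox1, Pax6 and Sox3 at 15.0, 9.95 and 6.91, whose ranges overlapped with their neighbours, so that their order is not resolved. In KO, Sox1 at 19.9 had a higher mean than Ncam1 and Map2, at 18.5 and 14.6. Trim71 in WT stood at 270.3 on the same scale. Lengths are those of the longest GENCODE transcript with a RefSeq identifier, and another isoform would shift a gene's level.

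**Figure D2:**
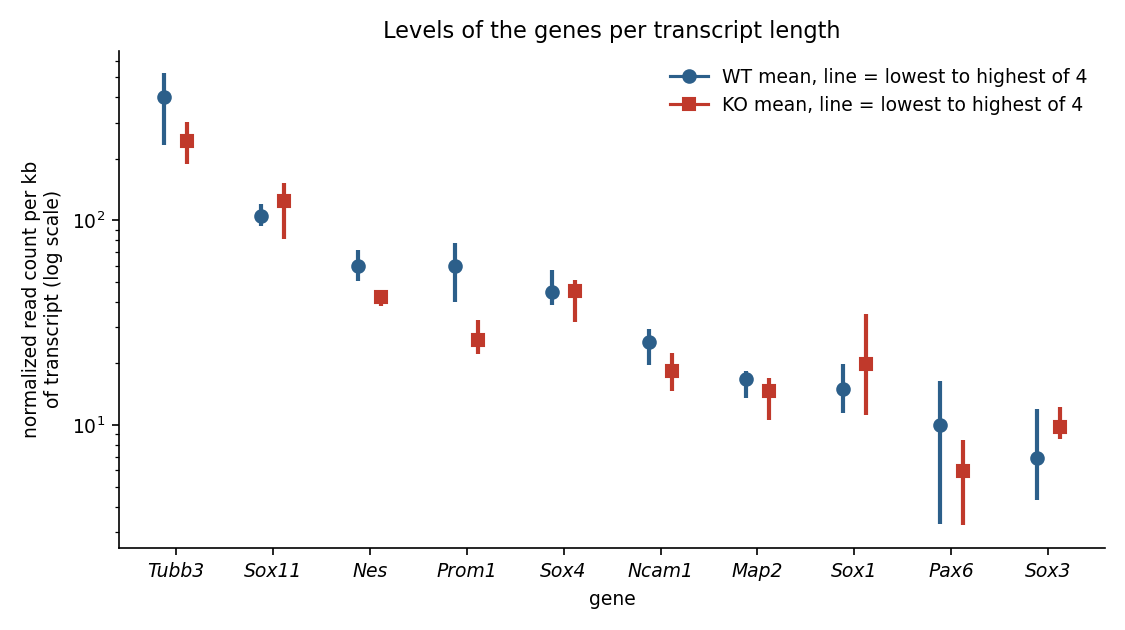
Normalized read counts per kb of transcript (log axis) of the 10 genes, ordered by the WT mean, with WT in blue circles and KO in red squares and lines from the lowest to the highest of 4 libraries. The means run from 400.0 for Tubb3 to 6.91 for Sox3 in WT, and Nes and Prom1 are the genes whose KO and WT lines do not overlap.

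Among the progenitor transcription factors, Sox1 and Sox3 had higher and Pax6 lower means in KO, and the groups overlapped for each of these genes. Sox1 (chr8:12395295-12400126, plus strand, 1 exon) is among the earliest factors restricted to neuroectoderm. Its values were 59.8, 54.4, 168 and 103 in KO and 73.9, 55.5, 95.6 and 64.2 in WT. KO replicates 3 and 4 lay above every WT library and KO replicates 1 and 2 within or under the WT range, and the log2 fold change was 0.31 ± 0.39 (SE) with a 95% interval from -0.62 to 1.24.

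Sox3 (chrX:60891366-60893430, minus strand, 1 exon) is a SoxB1 factor of the same progenitors. Its values were 17.6, 17.6, 20.4 and 25.3 in KO against 11.7, 24.7, 8.90 and 11.8 in WT. Each value rested on only 9 to 22 recovered reads, and WT replicate 2 was the WT library inside the KO range. The log2 fold change of Sox3 was 0.56 ± 0.32 (SE), with an unadjusted limma p of 0.119 and an exact permutation p of 0.114. Without WT replicate 2 it was 1.01 and past the unadjusted threshold, with an adjusted p of 0.405 (limma), so that this library decides the call.

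Pax6 (chr2:105668900-105697364, plus strand, 12 exons) specifies radial glia and dorsal progenitors. Its KO values of 19.2, 26.4, 18.9 and 10.1 compared with 51.4, 43.2, 10.3 and 19.2 in WT, so that WT replicates 1 and 2 were above and WT replicates 3 and 4 within the KO range. On the log2 scale the fold change was -0.56 ± 0.56 (SE, unadjusted limma p = 0.349, exact permutation p = 0.371). Without WT replicate 3 it was -1.26 and past the unadjusted threshold, and the recovered reads behind the values ran from 3 in KO replicate 4 to 54 in WT replicate 1.

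The SoxC factors, which act when progenitors become neurons, had overlapping values in both genotypes. Sox4 (chr13:28948919-28953713, minus strand, 1 exon) had values of 153, 234, 232 and 245 in KO and 207, 273, 185 and 193 in WT. Its means of 216 ± 42.3 (SD, n = 4) and 214 ± 39.9 were nearly equal, and the 95% interval of the log2 fold change, 0.01, ran from -0.49 to 0.51. Sox11 (chr12:27334264-27342574, minus strand, 1 exon) had values of 1101, 1262, 670.5 and 1106 in KO and 890.5, 1001, 812 and 780.2 in WT. Of the KO libraries 3 lay above every WT library, while KO replicate 3 lay under all of them, and the log2 fold change was 0.22 ± 0.22 (SE, unadjusted limma p = 0.360, exact permutation p = 0.343). Without KO replicate 3 it was 0.39 and past the unadjusted threshold.

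Nes (chr3:87971078-87980451, plus strand, 4 exons) encodes nestin, the intermediate filament protein of neural progenitors. Its values were 251, 279, 234 and 269 in KO and 404, 438, 309 and 322 in WT, every KO library below every WT library, and WT replicates 1 and 2 the highest. The log2 fold change was -0.50 ± 0.16 (SE), with a 95% interval from -0.87 to -0.12, a limma p past the unadjusted threshold and an adjusted p of 0.460 over all transcripts. An exact two-sided permutation test over the 70 assignments of the libraries gave p = 0.0286, the smallest p that 4 against 4 libraries allow, beside an unadjusted limma p of 0.0161. The permutation test exchanged the libraries without regard to clone or day. Every KO library below every WT library was found for 4.62% of all transcripts. Without WT replicate 2 the log2 fold change of Nes was -0.35 and no longer past the unadjusted threshold.

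The separation of the Nes groups depended on the correction for clone that the authors had made. Before it, the mean of Nes was 250 in clone E3 and 384 in clone 1, and the values were 198, 226, 181 and 321 in KO and 457, 386, 256 and 375 in WT. KO replicate 4, of clone 1, then lay above WT replicate 3, of clone E3, so the groups overlapped. The permutation test was run on the corrected values only, and its smallest p for Nes depends on that correction. Within clone E3 every KO library was below both WT libraries on either scale, and in clone 1 the single KO library was below both WT libraries. The log2 difference was -0.64 in clone E3 and -0.36 in clone 1 on the uncorrected values.

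Prom1 (chr5:43993620-44102032, minus strand, 28 exons) encodes prominin-1, a membrane protein of protrusions that is used to sort neural and other stem cells. Its values of 129, 103, 88.0 and 92.7 in KO were all below the 301, 159, 306 and 184 of WT. WT replicates 1 and 3 were about equal and WT replicates 2 and 4 lower, so the WT group spread more widely, with means of 103 ± 18.2 (SD, n = 4) in KO and 238 ± 77.1 in WT. A log2 fold change of -1.16 ± 0.27 (SE), a WT level 2.23-fold that of KO, had a 95% interval from -1.80 to -0.52 and an adjusted limma p of 0.439. The exact permutation test again gave its smallest p, 0.0286, beside an unadjusted limma p of 0.00354. With the clone correction undone the groups remained apart, and the log2 difference was -1.07 in clone E3 and -1.32 in clone 1. By flow cytometry the paper found surface CD133, the protein of Prom1, very low in control cells and lower without Trim71.

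All 3 genes of neuronal structure had lower means in KO, and for each the groups overlapped. Tubb3 (chr8:123411424-123422015, plus strand, 4 exons) encodes the beta tubulin of neurons. Its values were 382, 537, 562 and 351 in KO and 975, 952, 435 and 626 in WT, and WT replicate 3 was the WT library inside the KO range. Tubb3 had a log2 fold change of -0.67 ± 0.32 (SE, unadjusted limma p = 0.0739, exact permutation p = 0.114). Without WT replicate 3 it was -1.05 and past the unadjusted threshold. Tubulin genes share stretches of sequence, and how reads with several matches were counted is not given in the sources used here.

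Ncam1 (chr9:49502136-49798925, minus strand, 18 exons) encodes the neural cell adhesion molecule. Its values were 136, 124, 88.5 and 98.4 in KO and 171, 178, 118 and 152 in WT, and WT replicate 3 was again the only WT library below the highest KO library. The log2 fold change was -0.47 ± 0.21 (SE), with an unadjusted limma p of 0.0540 and an exact permutation p of 0.0857. Without WT replicate 3 it was -0.67 and past the unadjusted threshold. Map2 (chr1:66175273-66442583, plus strand, 15 exons), a microtubule-associated protein of dendrites, had values of 88.8, 106, 65.9 and 105 in KO and 114, 109.6, 115 and 84.4 in WT. Its log2 fold change of -0.21 had a 95% interval from -0.69 to 0.26.

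**Figure D3:**
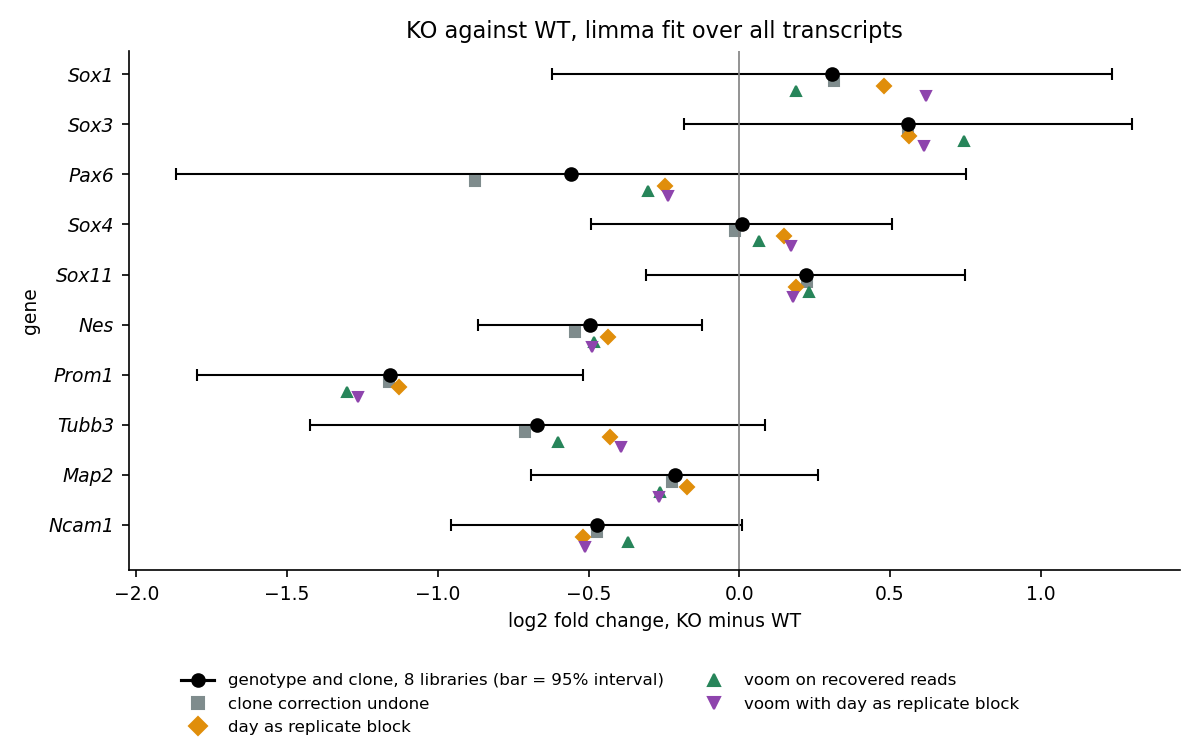
Log2 fold change, KO minus WT, of the 10 genes in the fit with genotype and clone (black circles, bars are 95% intervals) and in 4 other fits (clone correction undone, day as replicate block, voom on recovered reads, and voom with the block). The intervals of Nes and Prom1 lie wholly below 0, that of Ncam1 ends at 0.01, and the other 7 include 0.

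The labels put a KO and a WT library at each of day 3, 4 and 5, with the same clone in each pair, so genotypes were also compared within pairs. Nes, Prom1 and Ncam1 were lower in KO in 3 of 3 pairs. How many of all transcripts were lower in each pair was not counted, so this order alone does not set these genes apart. The log2 differences at day 3, 4 and 5 were -0.65, -0.40 and -0.26 for Nes, -0.62, -1.79 and -0.98 for Prom1, and -0.52, -0.42 and -0.62 for Ncam1. In the paired fit, with day as replicate block over these 6 libraries, 3 of the 10 genes were lower at an unadjusted p under 0.05, and 9.26% of all transcripts were. They were Ncam1, Prom1 and Nes, with log2 fold changes of -0.52, -1.13 and -0.44 and adjusted limma p-values of 0.207, 0.210 and 0.226. The other 7 genes each had at least 1 pair in either direction. Tubb3 was at -0.82, 0.37 and -0.83 in the pairs of day 3, 4 and 5, and Sox1 at -0.03, 0.80 and 0.67.

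**Figure D4:**
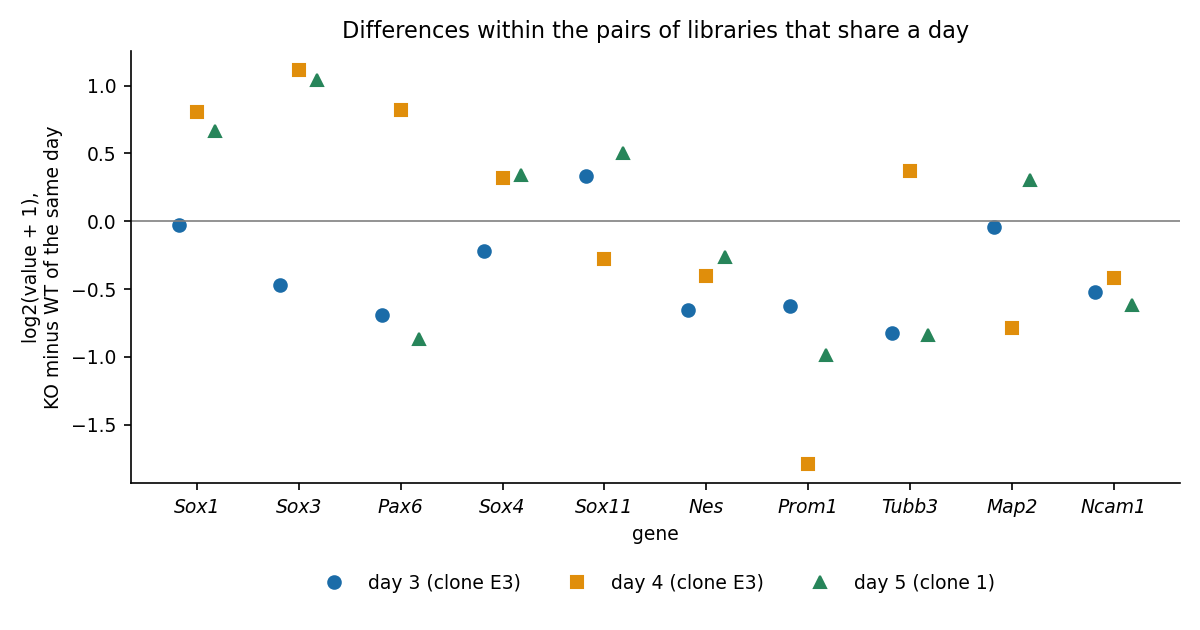
Difference in log2(value + 1) between the KO and the WT library of the same label day for the 10 genes, circles for day 3, squares for day 4 and triangles for day 5. All 3 points lie below 0 for Nes, Prom1 and Ncam1, and points lie on both sides of 0 for the other 7 genes.

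Whether the clones differed in their response was tested with an interaction term, which rests on a single KO library of clone 1. By limma, 0 of the 10 genes had an unadjusted p under 0.05 for it and 0 an adjusted one, against 2.59% of all transcripts at the unadjusted threshold. The largest estimate was that of Pax6, for which the log2 fold change of clone 1 minus that of clone E3 was -1.55 ± 1.09 (SE). Since the deposited values were corrected by clone, it was also taken with that correction undone, where it was -2.29 and again not past the unadjusted threshold.

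Of 59 other genes of neural progenitors, 29 were in the table, and 30 were not, among them the radial glia gene Fabp7 and the neural plate border gene Pax3. Among the 29, 3 were higher and 2 lower in KO at an unadjusted p under 0.05, and the median log2 fold change was -0.008. In percent of the genes in the table this was 10.3% higher and 6.90% lower, beside 4.62% and 4.46% of all transcripts. The higher genes were the progenitor factors Olig2 (978 ± 129 (SD) in KO and 602 ± 81.1 in WT) and Hes1 (247 ± 34.7 and 166 ± 43.8), and Bcl11a, a zinc finger factor at a mean of 25.3 in KO and 13.7 in WT. Olig2 marks motor neuron and oligodendrocyte progenitors, and for it every KO library was above every WT library. Of all 13558 transcripts 743 had KO wholly above WT, and 627 had KO wholly below WT. Olig2 passed the unadjusted threshold in 20 of 20 alternatives, and Hes1, whose groups overlapped, in 13 of 20. These alternatives use the same libraries. The paper had already named Olig2 as higher without Trim71, so its call here is not an independent result. The lower genes were Zic5, with means of 62.9 and 134, and Gli3, the repressor of hedgehog signalling, with 196 ± 20.01 in KO and 271 ± 36.6 in WT and no overlap of the groups.

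Among the progenitor genes with the highest means, Sox2, Msi2, an RNA-binding protein, and Vim, the intermediate filament vimentin, were at log2 fold changes of 0.06, -0.03 and 0.04. The interval of Msi2 ran from -0.33 to 0.27. With day as replicate block, 12 of the 29 genes had an unadjusted p under 0.05, 6 higher and 6 lower, while 9.92% and 9.26% of all transcripts were higher and lower in that fit. The count of 5 became 2 when KO replicate 4 was left out, and 3 or 8 when WT replicate 2 or 3 was. Of all 13558 transcripts 442, 1211 and 1296 passed in these fits, beside 1232 with all 8 libraries.

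Of 61 other genes of young neurons, 41 were in the table, of which 9 were lower and 2 higher in KO at an unadjusted p under 0.05, with a median log2 fold change of -0.16. In percent of the genes in the table this was 22.0% lower and 4.88% higher, beside 4.46% and 4.62% of all transcripts. These counts include Ebf1 and Ebf2, with KO means of 5.88 and 8.46, and Pou4f2, with a WT mean of 6.43. Such genes are in the table only through the group where they were high, so the filter favours a difference for them. With the replicate block 13 were lower and 2 higher, the latter Pou4f1 and Pou4f2, beside 9.26% and 9.92% of all transcripts. Without KO replicate 4 or KO replicate 2, 3 and 7 of the 41 passed in either direction. Of all 13558 transcripts 442 and 1002 passed in these fits, beside 1232 with all 8 libraries. Dpysl3, a growth cone phosphoprotein, had a log2 fold change of -0.77 ± 0.13 (SE, adjusted limma p = 0.294, exact permutation p = 0.0286). Its values were 1051, 1138, 1152 and 1023 in KO and 2062, 1644, 2004 and 1722 in WT, so the groups lay well apart.

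Kif5c, an axonal transport kinesin, was at 254 ± 15.6 (SD) in KO and 381 ± 52.0 in WT, and Map1b, a microtubule protein of growing axons, at 808 ± 133 and 1201 ± 157. The adhesion molecule Nrcam was at 19.8 ± 5.29 and 35.8 ± 7.81, on as few as 6 reads, and passed in 16 of 19 alternatives. Its KO values were below its WT values by a narrow margin, 26.16 in KO replicate 1 and 26.42 in WT replicate 2. A single read of WT replicate 2 counts as 1.76, so this separation is not resolved. Also lower were the proneural factor Neurog1 (85.8 and 135), the neurogenic zinc finger factor Insm1 (180.4 ± 24.3 and 256 ± 24.7), the neuronal RNA-binding protein Elavl4 (21.8 and 37.9), and the factors Ebf1 and Ebf2 at means of at most 13.4. Ebf1 did not pass with the replicate block and passed in 5 of 19 alternatives. The groups of Neurog1 and Elavl4 overlapped, and these genes passed in 13 of 20 and 10 of 19 alternatives. Dpysl3 and Kif5c each passed in 20 of 20. The higher genes were the tubulin Tubb2a and Pou4f2, a factor of retinal ganglion cells that was at means of 15.3 and 6.43. The paper had already named Pou4f2 as higher without Trim71.

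Tubb2a was at 953 ± 18.2 (SD, n = 4) in KO and 801 ± 14.7 in WT, and every KO library was above every WT library, the opposite order to Nes and Prom1. This order was found for 743 of all 13558 transcripts. Tubb2a was not past the unadjusted threshold in 9 of 20 alternatives, the replicate block among them with a log2 fold change of 0.24. It passed adjustment in 1, the linear model on untransformed values without clone (adjusted p = 0.0194). The most abundant neuronal genes, Tubb2b, Bex1 and Stmn2, had log2 fold changes of -0.09, -0.01 and 0.23, with unadjusted p-values of at least 0.133 in limma. Stmn2, a microtubule destabilizer of axons, was at 2881 ± 340 in KO and 2455 ± 222 in WT. None of the 29 and 41 genes had an adjusted p under 0.05 by limma, with 5 and 11 at the unadjusted threshold.

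**Figure D5:**
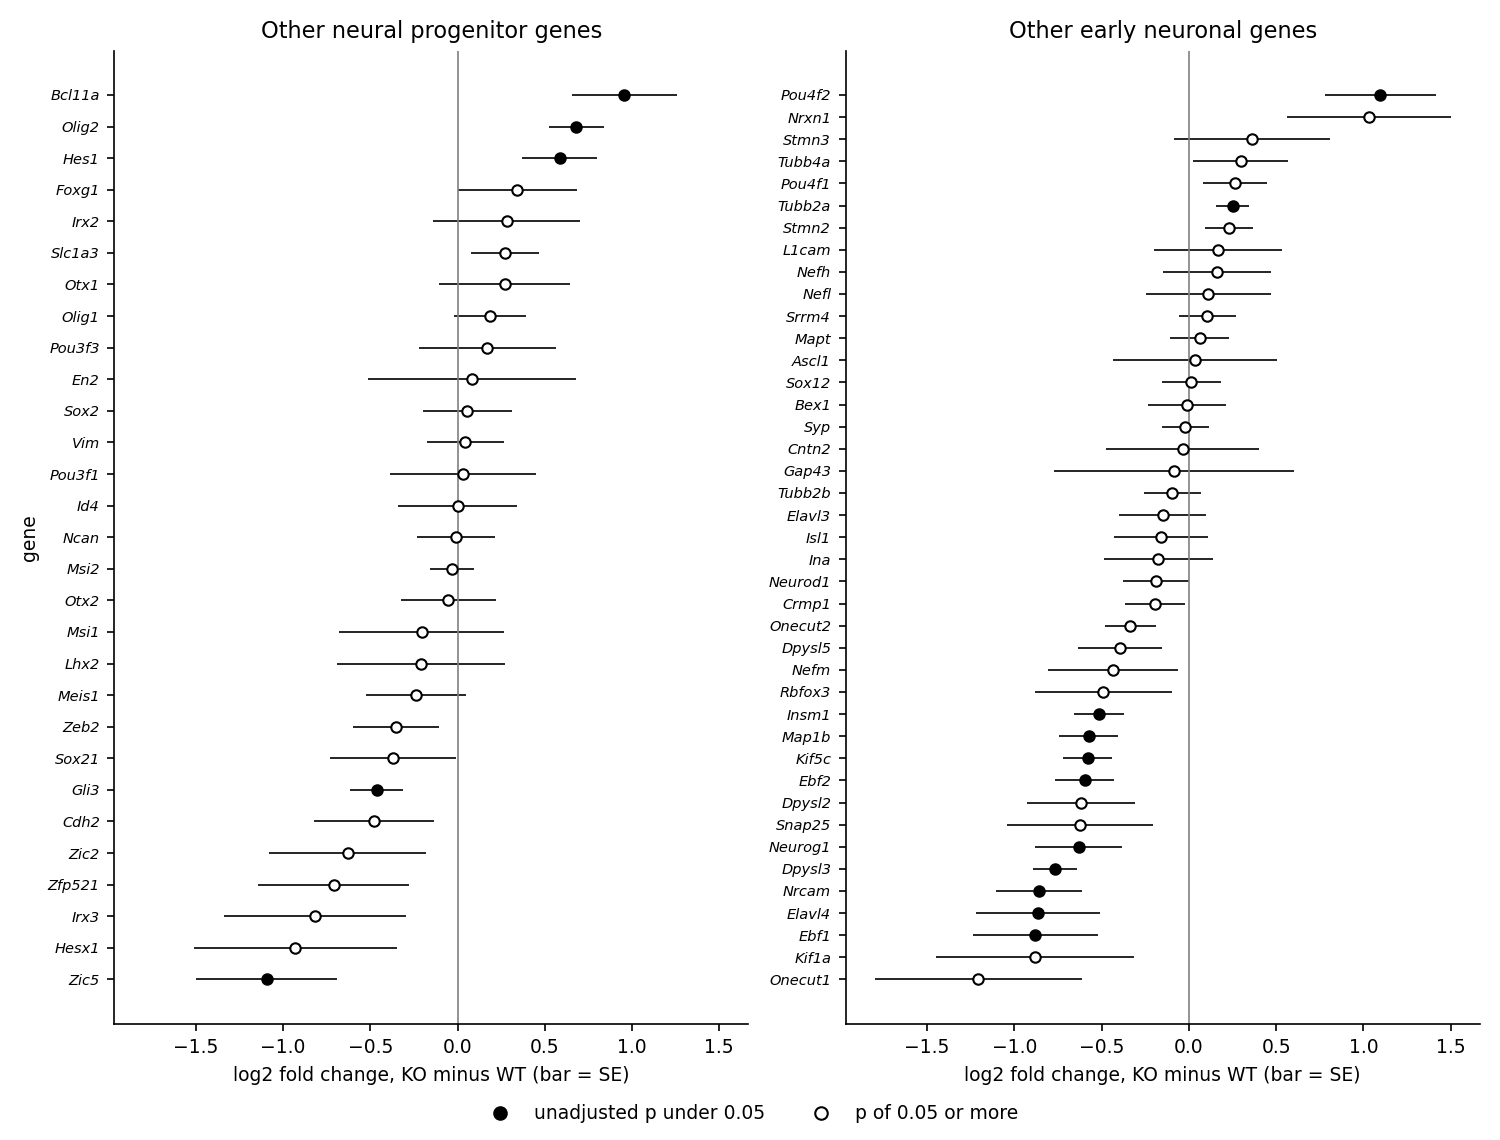
Log2 fold change, KO minus WT, with its SE for the 29 other progenitor genes and the 41 other neuronal genes in the table, filled where the unadjusted limma p was under 0.05. Among the filled points 3 are above and 2 below 0 in the progenitor list, and 2 above and 9 below 0 in the neuronal list.

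The repressors that keep neuronal genes silent outside neurons were all in the table. Rest, the silencer that binds neuronal genes, had values of 2041, 3115, 2400 and 2690 in KO and 3650, 3682, 2945 and 2720 in WT, so that the groups overlapped. Its log2 fold change was -0.34 ± 0.19 (SE, unadjusted limma p = 0.105, exact permutation p = 0.114). The Rest cofactors Rcor1, Rcor2 and Rcor3 were at 0.05, -0.13 and -0.23, the phosphatase Ctdsp1 at 0.06 and the splicing repressor Ptbp1 at 0.01. Of these 6 genes 0 had an unadjusted p under 0.05 by limma, and 0 an adjusted one.

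Markers of other cell types were summed in each library. Endoderm markers summed to 407 to 728 in KO and to 81.0 to 807 in WT, with WT replicate 1 the lowest and the other WT libraries at 449 or more, and the defining genes Afp and Ttr were not in the table. Fibroblast markers summed to 179 to 302 in KO and 134 to 256 in WT, with 6 of 12 genes not in the table, Dcn and Lum among them. Glial markers summed to 282 to 350 in KO and 283 to 491 in WT, and S100b, Aqp4, Mog and Sox10 were not in the table. Surface ectoderm markers summed to 844 to 1109 and 756 to 999, with Krt5, Tfap2a and Trp63 not in the table, and mesoderm markers to 187 to 243 and 140.4 to 223, without Mixl1, Mesp1, Gsc and Msgn1. The pluripotency genes summed to 75470 to 101200 and 67650 to 89860. In each of these lists the ranges of both genotypes overlapped.

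Of the 8 endoderm markers in the table, 7 had a log2 fold change above 0, with a median of 1.03, though 0 had an unadjusted p under 0.05 by limma. In the fit with day as replicate block, which lacks WT replicate 1, 6 of 8 were above 0 with a median of 0.81, and 1, Dab2, was lower at that threshold. At the unadjusted threshold of the fit with genotype and clone, the fibroblast gene Twist1 and the mesoderm gene Eomes were higher and the glial gene Mbp lower. The part of other cells in the differences of Nes and Prom1 was not tested.

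The library kit does not mark strand, so reads of overlapping genes on the opposite strand are part of these values. In the annotation, exons of Prom1, Ncam1, Map2 and Sox4 overlap those of predicted genes on the other strand, over 424, 417, 124 and 2616 bases, and those of Nes overlap none.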

How the data were processed

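Poly(A) RNA of 8 mES cell libraries was sequenced as paired-end reads. Per the methods and the labels, the authors aligned reads to mm10 with TopHat2 and Bowtie2 2.2.1 after base calling with CASAVA 1.8 and counted them per RefSeq transcript in Partek 6.6. The deposited values are a normalized signal: the authors normalized the read counts with DESeq2, corrected them for batch, set values under 1 to 1 and removed transcripts whose higher group mean was under 10. The correction was found from the values to be additive by clone: none of the 13350 transcripts above the floor in each library kept a clone effect beyond the printed precision. Undoing it gave unique whole reads for 13479 transcripts (99.4%), and these gave back 99.7% of their deposited values within the printed precision. In simulated data all 13298 unique solutions of 13319 transcripts were right. Their totals leave out reads of other transcripts and are lower bounds of the depth, and intervals from reads would cover counting error only.

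Genotypes were compared with limma 3.58.1 (R 4.3.3), fitting log2(value + 1) on genotype and clone for all 13558 transcripts, with Benjamini-Hochberg adjustment over all of them. Fold changes are on this scale, which understates those of low genes. On simulated data for this comparison (13479 transcripts), 191 of 200 transcripts changed by 2 on the log2 scale were called, with 6 others. The simulation set a dispersion of 0.1 and held no differences between days or cultures. It therefore does not give the sensitivity in these libraries, where Trim71 at -2.39 had an adjusted limma p of 0.294. Single genes were also compared by an exact two-sided permutation test on the deposited values. It exchanged libraries freely, ignoring clone and day, and is exact only if the libraries are exchangeable. Intervals are 95% intervals of the limma fit.

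Label days 3, 4 and 5 each hold a KO and a WT library of the same clone. A paired fit with day as replicate block was made over these 6 libraries, on the deposited values. With the clone correction undone, deviations from the group means correlated at 0.518 to 0.627 across transcripts within these 3 pairs. Over the 13 pairs of libraries of different days, some of different clones, the median was -0.18. In the deposited values the pairs of day 3, 4 and 5 were at 0.42, 0.54 and -0.23, so the day 5 pair did not vary together there.

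Genes named were the 10 members, Trim71, Pou5f1, Nanog, Sox2, 6 repressors of neuronal genes, and from each further list up to 8 genes with the largest change among those with an unadjusted p under 0.05 and a mean of at least 20, and the 3 with the highest mean. Fabp7 and Pax3 were named if present. Genes with lower means were named after their values were seen. The members and all lists were chosen with earlier results of these data known. The paper names Prom1 as lower, and Olig2 and Pou4f2 as higher, in cells without Trim71. No 2 libraries held identical columns. Alternatives were a pseudocount of 10, a mean of at least 50, a table without floored transcripts, no clone term, a linear model on untransformed values, voom on the recovered reads, the replicate block and leaving out each library. At 0.05, voom called 1282 transcripts before and 0 after adjustment, and with the block 3193 and 4. The clone correction undone together with the block and a model without clone on untransformed values were added after seeing the data. Positions are from GENCODE M21 and promoter windows from RefSeq, both on GRCm38. One gene of the progenitor list is not reported here.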

Additional observations from a re-analysis of the deposited data

Results flagged for a closer look

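In 3 of 74 groups of 4 values, a single library lay far from the others by Dixon's test at its 95% critical value, where chance gives about 1 in 20, or 3.7 groups. Sox4 in KO replicate 1 was 153, while the other KO libraries lay between 232 and 245. Map2 in WT replicate 4 was 84.4 and the other WT libraries 109.6 to 115, so the highest KO values of Map2 stood above this library. Map1b in KO replicate 2 was 1004 against 724 to 771 in the other KO libraries, and lay above WT replicate 3 at 993.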

How the results depend on the processing

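Across the 20 alternatives, Prom1 kept its direction and an unadjusted p under 0.05 in 20, Nes in 18 (not without WT replicate 2 or in the libraries of day 3 to 5 without a block), and Ncam1 passed in 9. The count of the 10 genes with an unadjusted p under 0.05 was 2 as reported. It was 1 in the libraries of day 3 to 5 without a block and 3 with the replicate block. In voom with the block it was 4, where Sox1 was higher (0.62), and without 1 library 2 to 5. Over all transcripts the count was 1232 as reported, 907, 2601 and 3193 in these 3 fits, and 442 to 1444 without 1 library. The median log2 fold change of the 10 genes was -0.41 to -0.19 without 1 library, and the interaction count 0 to 1. Paired by day as replicate block, 12 other progenitor genes passed (11 with voom, 12 with the clone correction undone as well), and 1015, 1071 and 1021 transcripts passed the fold change criterion in these 3 fits, beside 576 without the block. That progenitor count was 3 in the same libraries without a block and 3 in the linear model. The neuronal list gave 5 genes in the linear model, 6 in that without clone and 6 at a mean of at least 50, where fewer genes were tested. For these settings 274, 369 and 315 transcripts passed the criterion, and 1319, 1892 and 1027 had an unadjusted p under 0.05. Without 1 library the progenitor list gave 2 to 8 genes, the neuronal list 3 to 13 and the criterion 260 to 835 transcripts. Nes, Prom1 and the 5 progenitor and 11 neuronal genes with an unadjusted p under 0.05 kept their direction in each alternative that tested them. Genes near 0 changed sign: Sox4 was -0.016 with the clone correction undone and -0.15 to 0.21 without 1 library, and Msi2 and Tubb2b were 0.0025 and 0.0067 with the block and in the same libraries without it, where Vim was -0.044 (-0.024 with the clone correction undone and the block, -0.022 in voom with the block). Leaving out 1 library also turned the sign of Msi2 (-0.17 to 0.058), Tubb2b (-0.19 to 0.10), Vim (-0.14 to 0.24), Ptbp1 (-0.065 to 0.068), Sox2 (-0.14 to 0.25), Nanog (-0.42 to 0.027), Rcor1 (-0.17 to 0.21), Rcor2 (-0.31 to 0.061) and Bex1 (-0.23 to 0.23). The cause was not tested. Pax6 and Sox3, on as few as 3 and 9 reads, are the members with the fewest reads, and Ebf1 and Ebf2 rested on as few as 2.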

Other observations

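Several genes of differentiated neurons had sizable values in these sorted mES cells of both genotypes. They were chosen after their values were seen. Neurod1, a factor of neuronal differentiation, was at 432 ± 74.4 (SD, n = 4) in KO and 489 ± 68.6 in WT, above Sox1, Sox3 and Pax6 in both. The tau gene Mapt was at 771 ± 141 and 731 ± 39.8, and the neurofilament gene Nefh at 798 ± 71.4 and 770.3 ± 284. Their unadjusted limma p-values were 0.357, 0.726 and 0.617, and the ranges of both genotypes overlapped for each.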
